A study of Bombus terrestris with 25 samples.

Results

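Colony founders of Bombus terrestris, the buff-tailed bumble bee, that had reached egg laying by 2 routes were set side by side: founders after a cold diapause and founders after CO2 anaesthesia. The members were the libraries that the labels place in the groups founder post diapause and founder post CO2, 5 queens each, and made up 10 of the 25 libraries of the series. PolyA RNA came from the eviscerated abdomen with the fat body still attached, and each library was 1 queen. Founder post diapause queens were 4 months old. They had spent 9 to 10 weeks at 4 C after mating and were sampled about 1 month after their return to room temperature and daylight, once they had laid eggs and begun a colony. Founder post CO2 queens were 1.5 months old. They had been anaesthetised with pure CO2 on the day of mating and once more 24 h later, had no cold period, and were sampled about 1 month later at the same stage. All queens of both groups had been reared in the laboratory and mated at 5 to 10 days with unrelated males, and the same 5 genetic lines, labelled line_51, line_141, line_191, line_207 and line_296, gave 1 queen to each group. Route, age and time in the cold change together between the groups and cannot be told apart. The other groups gave reference levels and comparisons below, and shared the fit that estimated the spread between queens. They were diapause (queens sampled at the end of the cold, 3 months by their sample labels and 2.5 months by the series text), CO2-treated (sampled 24 h after treatment) and mated queens of 5 to 10 days.

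A bumble bee queen overwinters alone, living on lipid and glycogen held in the fat body, and then lays eggs and raises the first workers by herself. CO2 anaesthesia is used in bumble bee rearing because it makes queens that have not overwintered begin to lay. The insect fat body combines the roles of liver and fat tissue: it makes yolk precursors and blood proteins, stores fuel, and takes its signals from insulin-like peptides and from juvenile hormone.

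The deposited table gave read counts for 3861 genes, of which 3793 were tested, and so covered part of the transcriptome. Totals in the table, which are not sequencing depths, were 2844624 to 4057781 counts in founder post diapause queens and 2762100 to 3626206 in founder post CO2 queens. Levels are in CPM, each queen's counts rescaled to a library of 1e+06 with TMM factors, in the order of replicates 1 to 5, and CPM are not corrected for gene length. Of the genes listed for fat body, vitellogenin-6-like, both hexamerins and phosphoenolpyruvate carboxykinase were present in all 10 founders. They summed to 126 to 866 CPM in founder post diapause queens and 78.8 to 1368 CPM in founder post CO2 queens. In mated queens vitellogenin-6-like averaged 1645 CPM, hexamerin-like LOC100650745 22930 and phosphoenolpyruvate carboxykinase 3035. Founder post diapause means were 19.2, 289 and 143 CPM, and founder post CO2 means 18.6, 253 and 65.3. Hexamerin-like LOC100650380 averaged 12.2 CPM in mated, 8.49 in founder post diapause and 19.4 in founder post CO2 queens. The amount of fat body was not tested. Apolipophorins and transferrin are not analysed here. In bulk tissue, fewer cells of a type and less RNA per cell cannot be told apart.

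The question was whether founders keep a difference that goes with the route by which they came to lay. No gene reached the threshold between the founder groups. In edgeR's quasi-likelihood test over all 25 libraries, 0 genes (0%) were called higher and 0 (0%) lower in founder post diapause than in founder post CO2 queens at a Benjamini-Hochberg adjusted p under 0.05, and the smallest adjusted p was 0.112. At an unadjusted p under 0.05 there were 273 of 3793 genes (7.2%), with 57 (1.5%) higher and 216 (5.69%) lower in founder post diapause queens. DESeq2 called 3 genes higher and 5 lower, with 362 at an unadjusted p under 0.05. An edgeR fit of only the 10 founder libraries called 0 genes, with 102 of 3695 at an unadjusted p under 0.05. Values of 11 genes (0.29%) did not overlap between the 5 and the 5 queens. Among random splits of 10 queens into 5 and 5, full separation of a gene has a probability of 0.00794. The share seen was thus no larger than random splits give. In the edgeR fit of all 25 libraries, founder post diapause against diapause queens gave 3067 calls (80.9%) and founder post CO2 against CO2-treated queens 1075 (28.3%).

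That no gene was called does not show that the founders were alike. The median standard error of a log2 fold change was 0.42, and the median half-width of its 95% interval was 0.87. Both rest on a spread estimated over all 25 libraries, with a common coefficient of variation of 51.4%. Estimated within groups, it was 52.25% in founder post diapause and 64.9% in founder post CO2, against 42.1% to 48.0% in the other groups. The standard errors and intervals may therefore be too narrow for the founders, and the unadjusted p too small. The interval lay within 1 log2 unit of 0, that is within a 2-fold difference, for 1065 genes (28.1%), and within 2 log2 units for 3305 genes (87.1%). For the other genes a difference beyond those sizes was not excluded by its interval. The median log2 fold change over all genes was -0.11, or -0.07 with DESeq2 size factors in place of TMM scaling, and its median absolute size was 0.38. In 304 genes it was larger than 1.

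Queens of the same group differed from each other as much as queens of different groups. Over the log2 CPM of all tested genes, the mean distance between 2 queens (root mean square difference) was 1.09 within founder post diapause, 1.36 within founder post CO2 and 1.22 between the groups. The nearest other founder to founder post diapause replicates 1 and 3 was founder post CO2 replicate 3, and the nearest to founder post CO2 replicates 1, 2 and 3 was a founder post diapause queen in each case. Founder post CO2 replicates 4 and 5 were nearest to each other, at 0.605. A shared genetic line did not bring queens of the 2 groups closer: the mean distance was 1.33 in the 5 pairs of the same line and 1.19 in the 20 pairs of other lines, a difference that was not tested.

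The first principal component of the 10 founders held 61.3% of their variance, the second 11.9% and the third 9.12%. On the first, founder post diapause queens lay at 66.2, -26.7, 13.0, 19.2 and -8.27 (replicates 1 to 5), and founder post CO2 queens at 54.1, -40.8, 31.1, -52.9 and -55.0. Replicate 1 of each group was at the high end, founder post CO2 replicates 2, 4 and 5 at the low end, and the groups overlapped.

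**Figure D1:**
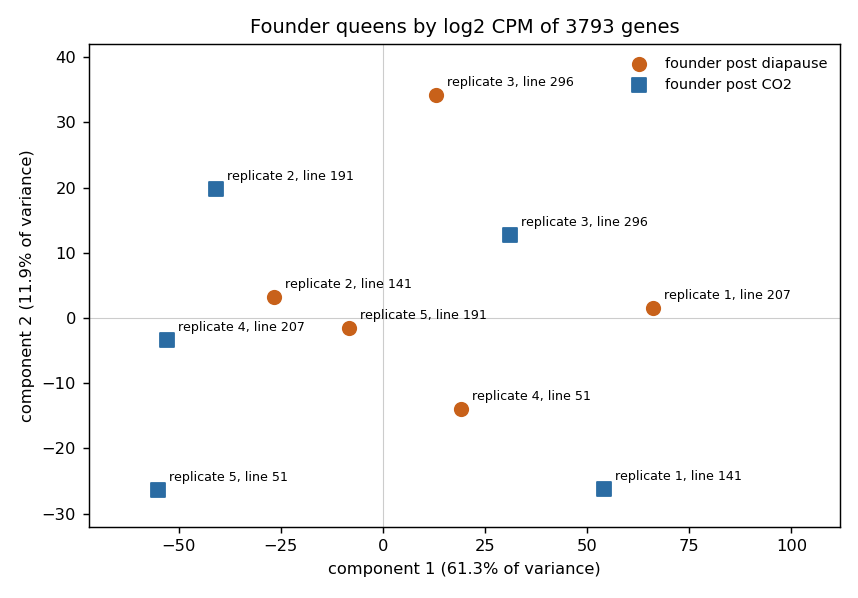
Scores of the 10 founder queens on the first (x axis, 61.3% of variance) and second (y axis, 11.9%) principal component of log2 CPM, 1 point per queen with its replicate and genetic line. The founder post diapause queens (circles) lie between -26.7 and 66.2 on the first component, inside the range of -55.0 to 54.1 of the founder post CO2 queens (squares) but for replicate 1 at 66.2.

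This leading axis moved with gene length. The longest tercile of tested genes, 4275 to 72943 bases of counted intervals, deviated from its mean over the founders by -0.81, 0.35, -0.13, -0.31 and 0.16 log2 units in founder post diapause queens and by -0.69, 0.55, -0.46, 0.61 and 0.73 in founder post CO2 queens. The shortest tercile, up to 2002 bases, ran the other way, from -0.17 in replicate 2 to 0.28 in replicate 1 of founder post diapause and from -0.38 in replicate 4 to 0.43 in replicate 1 of founder post CO2. TMM factors were 0.605, 1.10, 0.724, 1.00 and 1.06 in founder post diapause queens and 0.805, 1.09, 0.767, 1.23 and 1.28 in founder post CO2 queens. The 10 genes with the most counts took 14.6%, 8.49%, 14.3%, 10.4% and 9.67% of the counts of founder post diapause queens, and 8.11%, 9.69%, 11.4%, 6.604% and 5.59% of those of founder post CO2 queens. Measures of RNA quality are not analysed here. The part of gene length or of library composition in the gene values below was not tested. Values with the first component as a covariate are given only where that turned a direction. The component was computed from the same genes and queens. As a covariate it can take out a gene's own group difference, so these values do not tell gene length from route.

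Founder post CO2 queens were the more varied group in these libraries, without passing the test. The distance of each queen from the mean of the other 4 of the same group was 1.31, 0.901, 0.760, 0.626 and 0.696 in founder post diapause queens, 0.859 ± 0.273 on average (SD, n = 5), and 1.52, 0.958, 1.10, 0.907 and 1.05 in founder post CO2 queens, 1.11 ± 0.244 (SD, n = 5). The difference of -0.25 had p = 0.175 in an exact two-sided permutation test over 252 splits, where the smallest possible p was 0.00794. Each distance depends on the other queens of its group, and the finished distances were permuted. The p-values for spread are therefore only approximate. Single queens moved the difference. Without founder post diapause replicate 1 it was -0.39 (exact permutation p = 0.0159), and without founder post CO2 replicate 1 it was -0.09 (exact permutation p = 0.579). By gene, the SD of log2 CPM was larger in founder post CO2 in 2851 of 3793 genes (75.2%), with medians of 0.631 in founder post diapause and 0.824 in founder post CO2. A range of over 2 log2 units, more than 4-fold, was found in 1194 genes (31.5%) among founder post diapause and in 1829 (48.2%) among founder post CO2 queens. The same count was 940 (24.8%) among diapause, 626 (16.5%) among CO2-treated and 747 (19.7%) among mated queens.

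None of the yolk and storage genes was called, and their values overlapped between the routes. Vitellogenin-6-like (LOC100643258), whose name marks it as a relative of yolk precursors, had 11.3, 26.8, 17, 19.6 and 21.1 CPM in the founder post diapause queens, against 29.1, 4.02, 19.1, 19.2 and 21.4 CPM in the founder post CO2 queens. A single queen, founder post CO2 replicate 2, was low, and the other 9 lay between 11.3 and 29.1 CPM with overlapping groups. Its log2 fold change was 0.05 ± 0.84 (SE; 95% interval -1.68 to 1.78), so the estimate is near 0 but a 2-fold difference either way lay inside the interval. For scale, the same gene averaged 5139 ± 3446 CPM (SD, n = 5) in diapause queens, 85.7 ± 42.3 in CO2-treated queens and 1645 ± 2141 in mated queens. Hexamerins are blood proteins that insects store as a source of amino acids. The hexamerin-like gene LOC100650380 had 9.87, 5.42, 15, 9.69 and 2.5 CPM in the founder post diapause queens, against 4.51, 8.36, 41, 24.9 and 18 CPM in the founder post CO2 queens. Replicates 3, 4 and 5 of founder post CO2 were above all founder post diapause queens and the groups overlapped, with a log2 fold change of -1.19 ± 0.46 (unadjusted p = 0.017, edgeR adjusted p = 0.616). The second, LOC100650745, had 84.6, 297, 443, 443 and 177 CPM in the founder post diapause queens, against 25.4, 1096, 39.9, 28.1 and 76.1 CPM in the founder post CO2 queens. Founder post CO2 replicate 2 was the highest of all founders while the other 4 of that group lay below every founder post diapause queen; the log2 fold change was 0.19 ± 1.06, and 2.77 without that replicate, with an adjusted p still above 0.05.

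Receptors of the low-density lipoprotein family take up yolk and lipid particles into cells, and the vitellogenin receptor does so in the insect oocyte; low-density lipoprotein receptor-related protein 6 is known in mammals as a Wnt co-receptor. All 5 tested members had a negative log2 fold change, from -1.71 to -0.58, with a median of -1.11 beside -0.11 over all genes; 0 of 5 were called and 2 of 5 had an unadjusted p under 0.05 in the lower direction (5.69% of all genes). The vitellogenin receptor-like gene (LOC100649042) had 103, 1389, 595, 1060 and 1455 CPM in the founder post diapause queens, against 1198, 856, 941, 3666 and 3262 CPM in the founder post CO2 queens. Founder post CO2 replicates 4 and 5 were above all founder post diapause queens, founder post diapause replicate 1 was the lowest founder, and the log2 fold change was -1.11 ± 0.74 (edgeR adjusted p = 0.622). A very low-density lipoprotein receptor-like gene (LOC100643157) had 35.7, 392, 64.7, 103 and 181 CPM in the founder post diapause queens, against 37.3, 751, 64.4, 1015 and 669 CPM in the founder post CO2 queens, with a log2 fold change of -1.71 ± 0.81 (unadjusted p = 0.0498, edgeR adjusted p = 0.616). In founder post CO2, replicates 2, 4 and 5 stood above all founder post diapause queens, while replicates 1 and 3 lay among the low ones. The second receptor of that name (LOC100645105) had 46.5, 274, 54.1, 82.3 and 145 CPM in the founder post diapause queens, against 34.9, 542, 105, 731 and 479.8 CPM in the founder post CO2 queens, and the order of the founder post CO2 queens was of the same kind, with a log2 fold change of -1.65 ± 0.74. These 3 founder post CO2 queens are also those at the low end of the first component. LOC100643157 was itself among the named genes with the most negative weights on that component, so its match with the scores was built in. LOC100649042 (5997 bases) and LOC100643157 (5690) are in the longest length tercile, and LOC100645105 (2618) is in the middle one.

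Insulin-like signalling reports feeding to the fat body, and FOXO is the transcription factor that insulin holds out of the nucleus. Of 17 tested genes of the insulin, TOR and FOXO pathway, 0 were called, 6 had a positive and 11 a negative log2 fold change, with a median of -0.39. Forkhead box protein O-like (LOC100643217) had 17.9, 206, 52.4, 45.1 and 84 CPM in the founder post diapause queens, against 18.9, 247, 32.4, 243 and 299.8 CPM in the founder post CO2 queens. Again founder post CO2 replicates 2, 4 and 5 were above all founder post diapause queens and replicates 1 and 3 were not. The log2 fold change was -1.05 ± 0.59 (edgeR adjusted p = 0.616) and turned to 0.18 with the first component as a covariate. Insulin receptor substrate 1-like (LOC100644779), which couples the receptor to its kinases, had means of 66.4 ± 41.1 CPM in founder post diapause and 122 ± 96.2 CPM in founder post CO2 queens (SD, n = 5 each), a log2 fold change of -0.88 ± 0.5, and 0.28 with that covariate. The insulin-like receptor gene (LOC100650952) averaged 19.5 ± 10.4 CPM in founder post diapause and 36.5 ± 29.2 CPM in founder post CO2 queens, at -0.91 ± 0.54. A gene apart from this pattern was the insulin-like growth factor-binding protein complex acid labile subunit-like gene LOC100649210, whose mammalian namesake carries insulin-like growth factors in blood. It had 44.6, 87.4, 65, 53.8 and 49.1 CPM in the founder post diapause queens, against 189, 103, 103, 205 and 157 CPM in the founder post CO2 queens. All 5 founder post diapause queens were below all 5 founder post CO2 queens, with a log2 fold change of -1.33 ± 0.36 (95% interval -2.07 to -0.6, unadjusted p = 0.00117), yet the edgeR adjusted p was 0.556. All of these named insulin-related genes, at 9001 to 11384 bases, are in the longest tercile, and the part of length in their values was not tested.

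Juvenile hormone drives reproduction in many insects, and its epoxide hydrolase breaks it down. Juvenile hormone epoxide hydrolase 1-like (LOC100648328) had 1643, 1059, 2286, 880.2 and 1054 CPM in the founder post diapause queens, against 834, 1199, 2805, 1435 and 604 CPM in the founder post CO2 queens. The groups overlapped over their whole range and the log2 fold change was 0.01 ± 0.49 (95% interval -1.0 to 1.02). Juvenile hormone esterase, juvenile hormone acid methyltransferase and Kruppel homolog 1 are not analysed here. Of 11 tested genes of juvenile hormone and ecdysteroid making and response, 0 were called, 0 had an unadjusted p under 0.05, and the median was 0.16.

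Phosphoenolpyruvate carboxykinase (PEPCK), the entry enzyme of gluconeogenesis, had 19.7, 192, 84.7, 394 and 24.9 CPM in the founder post diapause queens, against 21.3, 259.7, 17.3, 6.57 and 21.7 CPM in the founder post CO2 queens. High queens occurred in both groups, replicates 2 and 4 of founder post diapause and replicate 2 of founder post CO2, and the log2 fold change was 1.13 ± 0.92 (95% interval -0.76 to 3.02). Of the 9 tested genes of glycolysis and gluconeogenesis, 7 had a positive log2 fold change, with a median of 0.44, and 0 were called. Cryptochrome-1-like (LOC100647270), of the family of clock proteins and light receptors, had 24.4, 64.1, 65.7, 39.2 and 54.9 CPM in the founder post diapause queens, against 20.1, 108, 59, 102 and 95.8 CPM in the founder post CO2 queens, a log2 fold change of -0.63 ± 0.42. In diapause queens the same gene averaged 702 ± 325 CPM (SD, n = 5). In lipid lists, median log2 fold changes were -0.02 over 18 genes of fatty acid and triglyceride synthesis and 0.03 over 22 of lipid breakdown. The median was 0.18 over 14 fatty acyl-CoA reductases, which form fatty alcohols. It was -0.28 over the 20 tested genes of the list named glycogen, trehalose and polyol metabolism. That list held mostly trehalose transporters, with trehalases and a sorbitol dehydrogenase, and no glycogen gene. None of these 4 lists held a called gene, and together they held 1 gene with an unadjusted p under 0.05.

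Superoxide dismutases turn superoxide into peroxide. The Cu-Zn enzyme gene LOC100642760 had 2336, 409, 1091, 768 and 744 CPM in the founder post diapause queens, against 354, 284, 817, 101 and 101 CPM in the founder post CO2 queens. The lowest founders were replicates 4 and 5 of founder post CO2, and the groups overlapped, since founder post CO2 replicate 3 was above founder post diapause replicates 2, 4 and 5. The log2 fold change was 1.69 ± 0.57 (unadjusted p = 0.00771, edgeR adjusted p = 0.616). The second Cu-Zn gene, LOC100646662, averaged 10090 ± 5653 CPM in founder post diapause and 6468 ± 4699 CPM in founder post CO2 queens (SD, n = 5 each), a log2 fold change of 0.64 ± 0.42. Both Cu-Zn genes, of 600 and 1622 bases, are in the shortest length tercile. Among 26 tested antioxidant genes, 18 had a positive log2 fold change, with a median of 0.23, 0 were called, and 1 had an unadjusted p under 0.05 in each direction (1.5% of all genes higher and 5.69% lower). The lower one was glutathione S-transferase 1-like (LOC100644200), of a family that joins glutathione to toxic compounds, with a log2 fold change of -1.46 ± 0.54 (unadjusted p = 0.0143, edgeR adjusted p = 0.616).

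**Figure D2:**
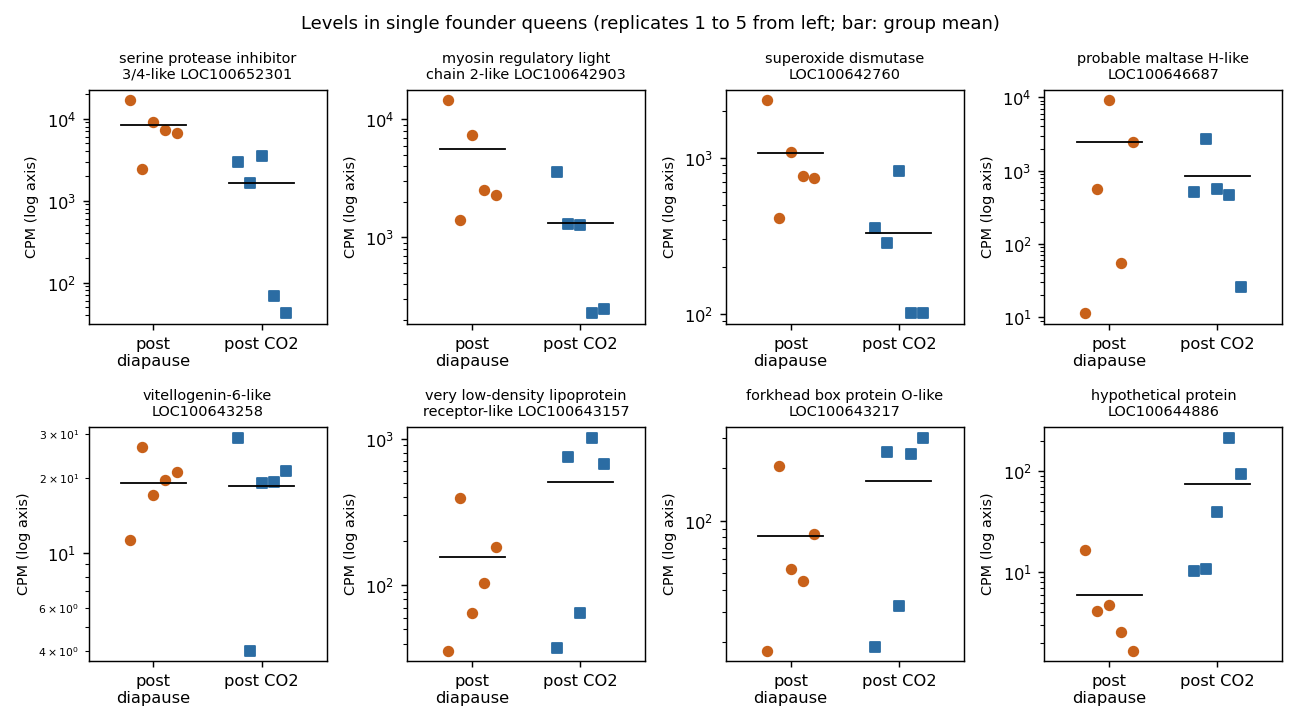
Level of 8 genes in each founder queen in CPM (y axes, logarithmic), replicates 1 to 5 from left to right within founder post diapause (circles, left) and founder post CO2 (squares, right), with a bar at the group mean. Founder post CO2 replicates 4 and 5 are the lowest for the serine protease inhibitor at 68.5 and 41.98 CPM, and founder post CO2 replicates 2, 4 and 5 are the highest for forkhead box protein O-like at 247, 243 and 299.8 CPM.

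Serine protease inhibitors (serpins) hold back the proteolytic cascades of insect blood, such as those of melanisation and Toll signalling. They had the largest median of the lists described, and were added as a list after their values were seen. Of 7 tested members, 6 had a positive log2 fold change, the median was 1.80 beside -0.11 over all genes, 5 had an unadjusted p under 0.05 in the higher direction (1.5% of all genes), and 0 were called. LOC100652301 (serine protease inhibitor 3/4-like) had 16800, 2400, 9190, 7249 and 6704 CPM in the founder post diapause queens, against 2948, 1642, 3464, 68.5 and 42 CPM in the founder post CO2 queens. Founder post CO2 replicates 4 and 5 were the lowest by a wide margin, and of the founder post diapause queens only replicate 2 lay within the range of founder post CO2. Its log2 fold change was 2.38 ± 0.83 (95% interval 0.67 to 4.08, unadjusted p = 0.0113, edgeR adjusted p = 0.616). LOC100648482, of the same name, had 42800, 8505, 42540, 22580 and 19220 CPM in the founder post diapause queens, against 9295, 13190, 9555, 706 and 444 CPM in the founder post CO2 queens. LOC100648602 (alaserpin-like) had 50310, 9277, 43440, 22190 and 18960 CPM in the founder post diapause queens, against 10640, 13540, 15060, 1415 and 906 CPM in the founder post CO2 queens. In both genes founder post diapause replicates 1, 3, 4 and 5 were above all founder post CO2 queens and replicate 2 was not; the log2 fold changes were 2.03 ± 0.84 and 1.8 ± 0.72. LOC100648717 and LOC100648833 lay at 2.1 ± 0.85 and 1.52 ± 0.58. These last 4 genes stand beside each other on scaffold Group11.4, between positions 7849859 and 7893434 of the table's own coordinates (build not given in the sources used here). Near-identical copies can share reads. Whether these 4 do was not tested, so they cannot be counted as independent observations. LOC100651307 (serine protease inhibitor 3-like) had 17660, 1540, 3494, 2027 and 1590 CPM in the founder post diapause queens, against 5438, 925, 4474, 497 and 232 CPM in the founder post CO2 queens; founder post diapause replicate 1 was the highest, and the log2 fold change of 1.19 ± 0.86 was -0.09 without that queen. The exception in direction was serpin B13-like (LOC100647974) at -0.55 ± 0.45. Summed over the 7, levels ran from 28520 to 161500 CPM with a median of 69920 in founder post diapause queens, and from 2830 to 42310 CPM with a median of 36300 in founder post CO2 queens. The 2 low queens, founder post CO2 replicates 4 and 5, also had the lowest scores on the first component and the smallest share of counts in the top 10 genes. These matches are not independent of the serpin values. LOC100652301, LOC100651307 and LOC100648717 are among the named genes with the largest weights on that component, and high serpin counts can themselves raise the top 10 share. By length, LOC100648602 (3120 bases) is in the middle tercile, serpin B13-like (7256) in the longest and the other serpins in the shortest.

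Genes of the mitochondrial respiratory chain and ATP synthase leaned one way without single genes passing. Of 39 tested genes of oxidative phosphorylation, 38 had a positive log2 fold change, with a median of 0.49; 3 (beside 1.5% of all genes) had an unadjusted p under 0.05 in the higher direction and 0 were called. Cytochrome c oxidase subunit 6A1 (LOC100643317), a nuclear subunit of the last complex of the chain, had 1540, 394, 569, 440.5 and 317 CPM in the founder post diapause queens, against 326, 271, 698, 185 and 159.5 CPM in the founder post CO2 queens, a log2 fold change of 0.99 ± 0.41 (unadjusted p = 0.0251, edgeR adjusted p = 0.616). The gene, of 497 bases, is in the shortest length tercile. Founder post diapause replicate 1 was the highest founder, and the groups overlapped. This direction rested on that replicate: without founder post diapause replicate 1, 22 of 39 genes were positive and the median was 0.08, while without founder post CO2 replicate 1 all 39 were positive with a median of 0.96. Proteasome subunits, which degrade tagged proteins, had 20 of 23 positive values and a median of 0.29, or 16 of 23 and 0.03 without founder post diapause replicate 1. Mitochondrial ribosomal proteins had 26 of 29 positive and a median of 0.18, or 13 of 29 and -0.05 without that queen. Cytosolic ribosomal proteins had a median of 0.09 over 13 genes, and -0.38 without that queen. None of these 3 lists held a gene with an unadjusted p under 0.05. Mean deviations over the cytosolic ribosomal list were 1.39, -0.66, -0.10, 0.10 and -0.19 log2 units in founder post diapause queens and 1.09, -0.92, 0.81, -1.02 and -0.50 in founder post CO2 queens, an order that put replicate 1 of each group at the top.

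**Figure D3:**
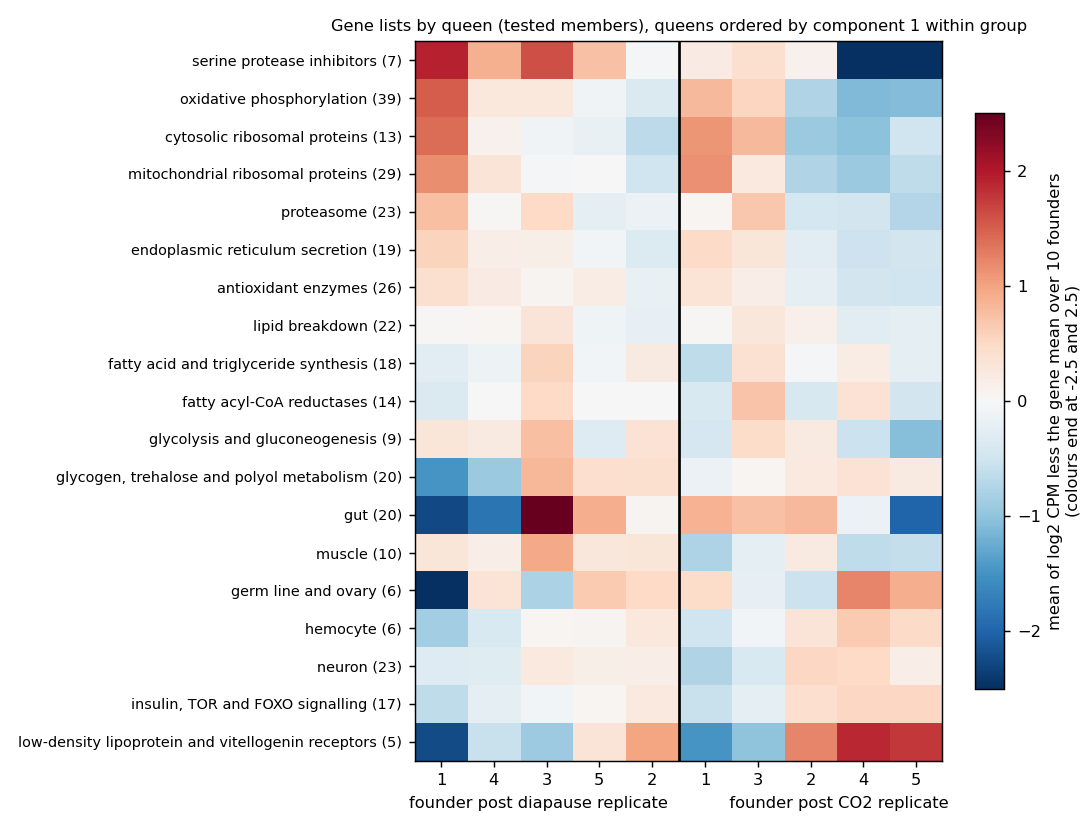
Mean deviation of 19 gene lists in each founder queen, in log2 CPM less each gene's mean over the 10 founders (colour, red above and blue below), with the number of tested genes in brackets; queens run within founder post diapause (left) and founder post CO2 (right) by their score on the first component. Serine protease inhibitors are lowest in founder post CO2 replicates 4 and 5, at -2.62 and -3.21, and gut enzymes range from -2.26 in replicate 1 to 2.86 in replicate 3 of founder post diapause.

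Among founder post diapause queens, digestive enzymes were the most variable named genes. Of the named genes with a mean log2 CPM of at least 5, the 5 with the largest SD among founder post diapause queens were 4 maltases, which split sugars, and a trypsin, and all 5 had their highest value in founder post diapause replicate 3. Probable maltase H-like (LOC100646687) had 11.3, 564, 9100, 54.3 and 2429 CPM in the founder post diapause queens, against 510.4, 2658, 552, 459.6 and 25.9 CPM in the founder post CO2 queens. Founder post diapause replicates 3 and 5 were high and replicates 1 and 4 low, an 807-fold range, against 103-fold in founder post CO2 queens, where replicate 5 was low. Trypsin-1-like (LOC100644694) had 32, 233, 5018, 29.1 and 846 CPM in the founder post diapause queens, against 546, 692, 455, 157 and 9.58 CPM in the founder post CO2 queens. Its highest founder was again founder post diapause replicate 3 and its lowest founder post CO2 replicate 5. The other maltases, LOC100650530, LOC100646641 and LOC100643731, ranged 260-fold, 234-fold and 218-fold among founder post diapause queens and 86.1-fold, 85.1-fold and 26.3-fold among founder post CO2 queens. Whether near-identical maltase genes share reads was not tested. As a list, 20 gut enzymes had a median log2 fold change of 1.3 with 13 of 20 positive, 0 called and 0 with an unadjusted p under 0.05. Without founder post diapause replicate 3 the median turned to -0.40 with 1 of 20 positive, and with the genetic line as a block it was 0.22. The list summed to between 1633 and 46100 CPM in founder post diapause queens and to between 3282 and 9700 CPM in founder post CO2 queens, although the abdomens were eviscerated.

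Among founder post CO2 queens the most variable named genes were of mixed kind. Membrane metallo-endopeptidase-like 1-like (LOC100645190), a neprilysin-type peptidase, had 94.9, 1349, 3250, 2457 and 1581 CPM in the founder post diapause queens, against 375, 8172, 1914, 7.51 and 4.23 CPM in the founder post CO2 queens. Founder post CO2 replicates 4 and 5 were lowest and replicate 2 highest, an 1933-fold range. Protein NPC2 homolog (LOC100647216), of a family of sterol-binding proteins, had 26.3, 84.6, 980.1, 12 and 494 CPM in the founder post diapause queens, against 3260, 220.4, 446, 9.62 and 4.79 CPM in the founder post CO2 queens, with founder post CO2 replicate 1 highest. Alpha-glucosidase-like (LOC100643608) had 76.1, 2360, 4059, 1917 and 62.9 CPM in the founder post diapause queens, against 291, 624, 913, 28.1 and 4.51 CPM in the founder post CO2 queens; founder post CO2 replicates 4 and 5 were again lowest, and founder post diapause replicates 2, 3 and 4 were above all founder post CO2 queens. Its log2 fold change was 2.19 ± 1.6 (edgeR adjusted p = 0.641). Mite allergen Der f 3-like (LOC100646106), a trypsin-like protease by its name, ranged 140.5-fold in founder post diapause and 141.4-fold in founder post CO2 queens, and the serpin LOC100652301 described above was the fifth.

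Markers of other tissues also varied. Of 6 germ line and ovary genes, 0 were called and all 6 had a negative log2 fold change, with a median of -0.54. Piwi-like (LOC100646008), which silences transposons in the germ line, had 42.3, 620.1, 230.1, 447 and 556 CPM in the founder post diapause queens, against 544, 228, 465, 1729 and 1010 CPM in the founder post CO2 queens, a log2 fold change of -1.07 ± 0.54 (edgeR adjusted p = 0.616). Nanos homolog 3-like (LOC100642642), a translational repressor of germ cells, had 28.2, 279, 59.6, 145 and 304 CPM in the founder post diapause queens, against 130.1, 159.7, 86.3, 520.1 and 384 CPM in the founder post CO2 queens. In both genes founder post diapause replicate 1 was the lowest founder and founder post CO2 replicates 4 and 5 were above all founder post diapause queens. The list summed to 388 to 4063 CPM in founder post diapause and to 994 to 5336 CPM in founder post CO2 queens, and the part of attached ovary in this RNA was not tested. The vitellogenin receptor had its 2 highest values in the same 2 queens. Of 10 muscle genes, 5 were positive and the median was -0.02, but 3 had an unadjusted p under 0.05 in the higher direction (1.5% of all genes). Myosin regulatory light chain 2-like (LOC100642903) had 14510, 1391, 7359, 2501 and 2282 CPM in the founder post diapause queens, against 3560, 1303, 1268, 226 and 246 CPM in the founder post CO2 queens, a log2 fold change of 2.09 ± 0.63 (unadjusted p = 0.00406). The lowest values were those of founder post CO2 replicates 4 and 5, and the groups overlapped, since replicate 1 of founder post CO2 was above replicates 2, 4 and 5 of founder post diapause. Myosin light chain alkali-like (LOC100645892) had 4644, 969, 3941, 1544 and 1491 CPM in the founder post diapause queens, against 1015, 1257, 915, 388 and 424 CPM in the founder post CO2 queens (1.65 ± 0.52). Arginine kinase (Argk), which buffers ATP in insect muscle, had 1515, 979, 4828, 874 and 1196 CPM in the founder post diapause queens, against 425, 936, 774, 1121 and 769.5 CPM in the founder post CO2 queens (1.22 ± 0.47). The other 7 lay between -0.57 (twitchin-like, LOC100644118) and 1.94 (troponin C, LOC100645885), and the 3 had an edgeR adjusted p of 0.616 each. Hemocyte genes had a median of -0.25 (6 tested, 0 positive) and neuron genes -0.25 (23 tested, 9 positive), with 0 called in either.

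The genes with the smallest p were chosen after their values were seen, and most carried no functional name. LOC100644886 had 16.4, 4.15, 4.76, 2.55 and 1.66 CPM in the founder post diapause queens, against 10.3, 10.8, 39.6, 215 and 93.5 CPM in the founder post CO2 queens. Of the founder post diapause queens only replicate 1 lay within the range of founder post CO2, and the log2 fold change was -3.68 ± 0.69 (95% interval -5.11 to -2.26; edgeR unadjusted p = 4.9e-05, adjusted p = 0.112, 0.000605 in DESeq2). In other groups it averaged 7.12 CPM in diapause, 8.38 in CO2-treated and 9.58 in mated queens, so founder post CO2 queens were the group with the high mean. By edgeR it was called without replicate 1 of founder post diapause (log2 -4.50, adjusted p = 0.0235), and without replicate 1 (-3.97, 0.0130) or replicate 2 (-3.96, 0.0443) of founder post CO2. The table placed it on scaffold Group12.2 at 5388118 to 5390790, as a single interval.

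LOC100650045 had 4.23, 23.6, 12.6, 10.7 and 17.2 CPM in the founder post diapause queens, against 10.3, 65.6, 35.6, 77.7 and 85.4 CPM in the founder post CO2 queens. LOC100642921 had 244, 189.6, 149.7, 126 and 97.9 CPM in the founder post diapause queens, against 109, 377, 1301, 811 and 1139 CPM in the founder post CO2 queens. In each, founder post CO2 replicate 1 alone lay within the range of founder post diapause and the other 4 of that group were higher; the log2 fold changes were -2.0 ± 0.41 and -2.21 ± 0.45, both with an edgeR adjusted p of 0.112. Both were called without founder post CO2 replicate 1, at -2.26 and -2.49 (edgeR adjusted p = 0.00285 each). They lie on scaffold Group10.1 at 10652531 to 10674014 and on Group4.5 at 1388477 to 1391192. In the other direction, LOC100645985 had 41.4, 57.1, 157, 29.6 and 130 CPM in the founder post diapause queens, against 13.5, 27.9, 18.4, 2.11 and 10.4 CPM in the founder post CO2 queens. No founder post diapause queen overlapped a founder post CO2 queen, and the log2 fold change was 2.52 ± 0.55 (edgeR adjusted p = 0.172). LOC100649478 had 482, 22, 1411, 421 and 46.3 CPM in the founder post diapause queens, against 2.46, 13, 94.2, 2.58 and 1.69 CPM in the founder post CO2 queens; founder post CO2 replicate 3 was above founder post diapause replicates 2 and 5. Its log2 fold change was 4.39 ± 0.89 (edgeR adjusted p = 0.172), and it was called without that founder post CO2 queen (6.57, adjusted p = 0.00371).

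The 8 calls of DESeq2 were these 5 genes, glucose dehydrogenase [acceptor]-like (LOC100647448, log2 4.13, DESeq2 adjusted p = 0.00436), LOC100644101 (-5.01, 0.0267) and LOC100651905 (-1.81, 0.0414). The glucose dehydrogenase, a flavoprotein family of insects, had 7.99, 108, 234, 195 and 9.43 CPM in the founder post diapause queens, against 3.69, 5.26, 4.68, 12.4 and 4.79 CPM in the founder post CO2 queens. Founder post diapause replicates 2, 3 and 4 were high, while replicates 1 and 5 lay in the range of founder post CO2. LOC100644101 had 188, 100.2, 27.6, 17.8 and 15 CPM in the founder post diapause queens, against 189.6, 210.2, 2668, 4342 and 5201 CPM in the founder post CO2 queens. Its groups did not overlap, by a narrow margin between replicate 1 of each, and its edgeR adjusted p was 0.616.

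Among further genes with a product name and the smallest p, none was called. Slit homolog 1 protein-like (LOC100642295), named for an axon guidance protein, averaged 37.7 ± 18.4 CPM in founder post diapause and 248 ± 286 CPM in founder post CO2 queens (SD, n = 5 each), a log2 fold change of -2.71 ± 0.74, with 521 and 597 CPM in founder post CO2 replicates 4 and 5 and at most 75.5 CPM in the other 8 founders. The solute carrier organic anion transporter family member 4A1-like gene (LOC100648480) lay at -2.19 ± 0.62 and the transcription factor CCAAT/enhancer-binding protein-like (LOC100642562), of a family that acts in fat cell differentiation in mammals, at -1.88 ± 0.54. In both, founder post CO2 replicates 2, 4 and 5 were above all founder post diapause queens and replicates 1 and 3 were not. Protein turtle-like (LOC100643143, -1.52 ± 0.47), dystrobrevin beta-like (LOC100647087, -1.07 ± 0.32) and leucine-rich repeat-containing protein 20-like (LOC100642680, -1.26 ± 0.39) had founder post CO2 replicate 1 as the lowest of that group. Neurexin-2-alpha-like (LOC100646013), of a family of synaptic adhesion proteins, was the reverse at 1.46 ± 0.42. Dynein heavy chain 5, axonemal-like (LOC100648319), a motor of cilia, lay at -1.22 ± 0.39 with at most 6.97 CPM in any founder.

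**Figure D4:**
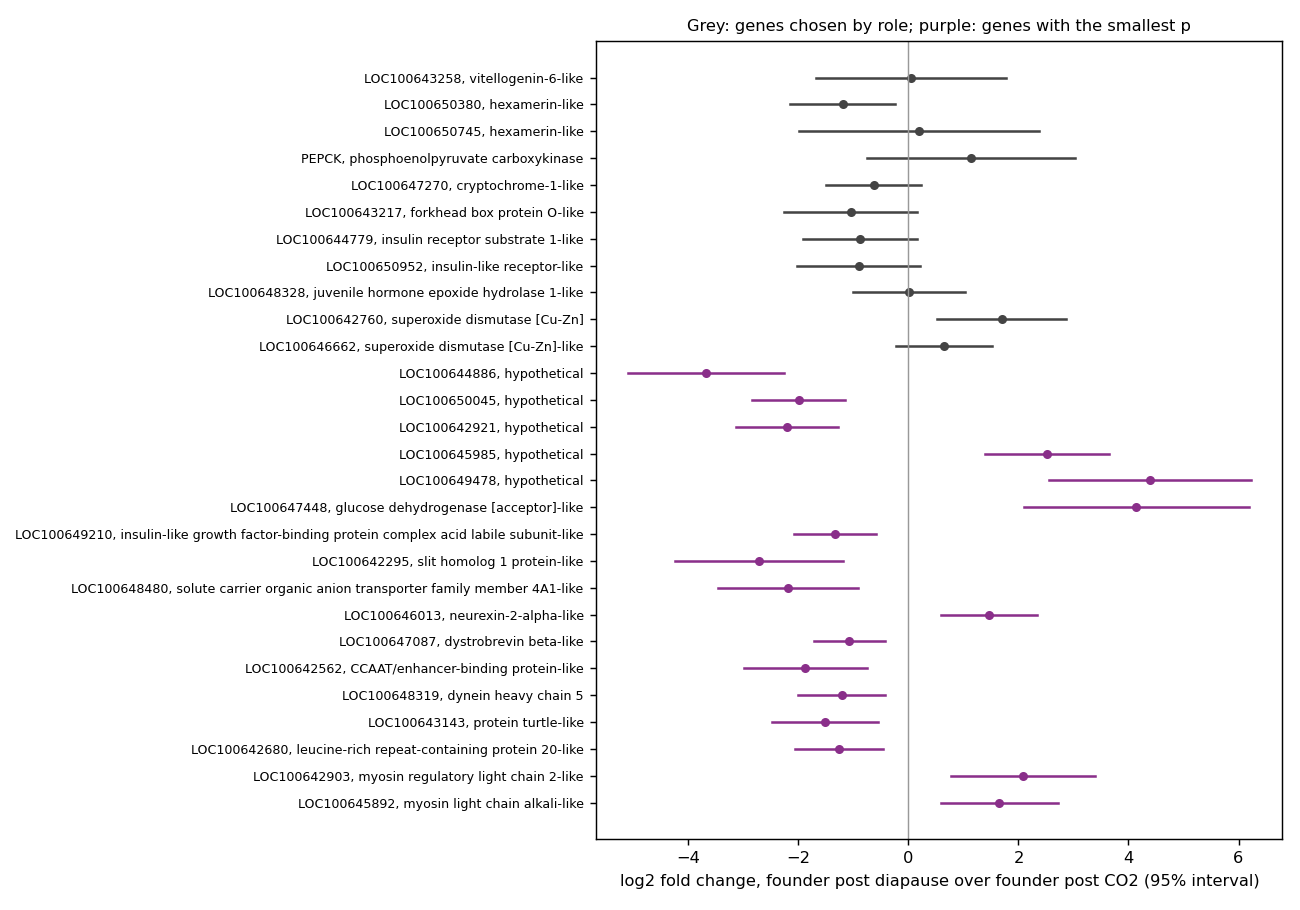
Log2 fold change of founder post diapause over founder post CO2 queens (x axis, points) with its 95% interval (lines) from the edgeR fit, for genes named by their role (grey) and for genes with the smallest p, chosen after their values were seen (purple). Vitellogenin-6-like is at 0.05 with an interval of -1.68 to 1.78, and LOC100644886 at -3.68 with an interval of -5.11 to -2.26.

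The same routes were also compared at an earlier stage, at the end of the cold against 24 h after CO2, and that comparison shares no library with the one of the founders. Diapause against CO2-treated queens gave 244 calls (6.43%), 214 higher and 30 lower in diapause. The 214 genes had a median log2 fold change of 1.59 there and of -0.33 between the founders, where 45 were higher and 169 lower in founder post diapause, 0 were called, 14 had an unadjusted p under 0.05 (7.2% of all genes) and 69 had an interval within 1 log2 unit of 0. The 30 genes lower in diapause had medians of -1.43 there and -0.12 between the founders, with 9 higher and 21 lower. Over all genes, 1612 were higher and 2181 lower in founder post diapause queens, with a median of -0.11. Diapause replicate 1 and the shallow libraries mated replicate 2 and CO2-treated replicate 3, of 586405 and 534806 counts, stand apart from the rest. Without these 3 libraries, 604 genes were higher and 779 lower in diapause than in CO2-treated queens. Between the founders the 604 then had a median of -0.45 (93 higher, 511 lower) and the 779 a median of 0.21 (577 higher, 202 lower), beside -0.13 over all genes, with 0 called in either set.

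Genes with a product name and among the smallest p between diapause and CO2-treated queens were followed singly. The unnamed genes LOC100648499 and LOC100649341, which ranked next after the first of these, had log2 fold changes of 5.24 and 2.60 at that stage and of -0.6 and -0.05 between the founders. The C20orf4-like gene (LOC100649756) averaged 3663 ± 2269 CPM in diapause and 134 ± 39.1 CPM in CO2-treated queens (SD, n = 5 each), a log2 fold change of 4.77. It had 90.7, 72.1, 92.9, 93.3 and 89 CPM in the founder post diapause queens, against 94, 89.5, 124, 126 and 72.7 CPM in the founder post CO2 queens, a log2 fold change of -0.21 ± 0.53 with an interval of -1.29 to 0.88. The groups overlapped and both were narrow. Vitellogenin-6-like (LOC100643258) differed by 5.90 ± 0.82 (SE) between diapause and CO2-treated queens, and by 0.05 between the founders. Cryptochrome-1-like (LOC100647270) differed by 2.55 ± 0.42 at the earlier stage and by -0.63 ± 0.42 between the founders. Transcription initiation factor TFIID subunit 7-like (LOC100647652) differed by 1.98 at the earlier stage and by -0.06 ± 0.31 between the founders, and the tRNA-splicing ligase RtcB homolog (LOC100647213) stood at 1.96 and -0.42 ± 0.32. Cytochrome P450 305a1-like (LOC100647578), which was lower in diapause at -2.10, was at -0.48 ± 0.34. Coagulation factor X-like (LOC100649373), higher in diapause at 3.12, had 2.35, 5.42, 4.42, 5.1 and 4.16 CPM in the founder post diapause queens, against 9.85, 5.88, 8.27, 5.63 and 9.3 CPM in the founder post CO2 queens. All founder post diapause queens were below all founder post CO2 queens, at -0.84 ± 0.48 (edgeR adjusted p = 0.616). The margin was narrow, 5.42 against 5.63 CPM at a low level, and 0.29% of all genes did not overlap.

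**Figure D5:**
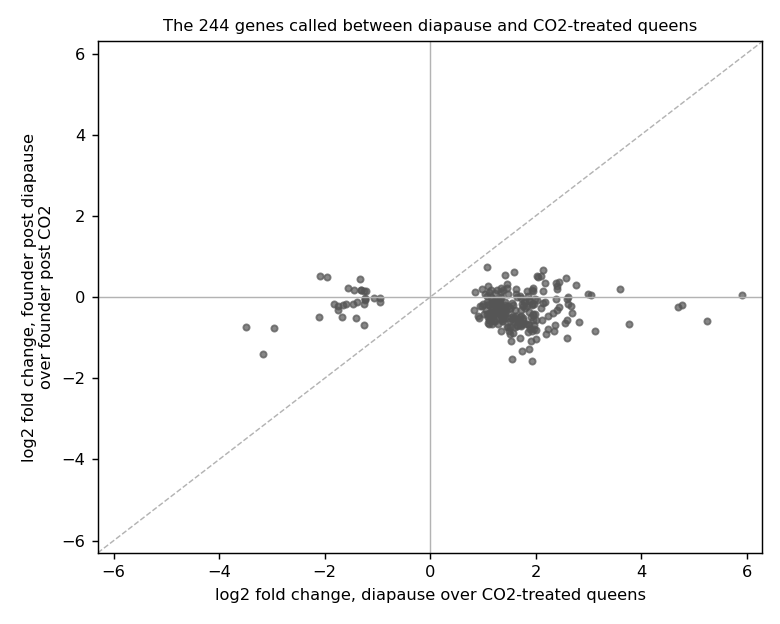
Log2 fold change of diapause over CO2-treated queens (x axis) and of founder post diapause over founder post CO2 queens (y axis) for the 244 genes called between diapause and CO2-treated queens, 1 point per gene, with a dashed line of equal values. The 214 genes on the right have a median of 1.59 on the x axis and -0.33 on the y axis, and the points lie near the horizontal line and not along the dashed one.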

How the data were processed

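The authors deposited raw read counts for short genomic intervals, 1 column for each of 25 libraries. Per the submitters' processing notes, Trimmomatic, TopHat and DESeq were used; versions, genome build, counter and strandedness: not given in the sources used here. Counts of 22679 intervals were summed over 3861 genes by the gene ID in the interval's name, without regard to strand, so antisense or overlapping genes cannot be told apart. Product names came from the table, and 3534 genes were found in a RefSeq gene table. The edgeR filter (minimum count 10, minimum total 15) removed 68 genes and left 3793. A quasi-likelihood model in edgeR 4.0.16 (R 4.3.3, limma 3.58.1) was fitted to all 25 libraries with group as the factor and TMM normalisation, with 20 residual degrees of freedom and a common coefficient of variation between queens of 51.4%. The contrast was founder post diapause over founder post CO2, two-sided; the threshold was an adjusted p (Benjamini-Hochberg) under 0.05. CPM carry the TMM factors; log2 CPM used a prior count of 2. Standard errors (SE) and 95% intervals came from the same fit. DESeq2 1.42.0 was an alternative, and Python 3.11.15 with pandas 2.3.3, numpy 2.4.6 and matplotlib 3.10.9 handled tables and figures. The procedure was tested on simulated counts.

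Each library was 1 queen, and nothing in the labels says which queens shared a cage or a day. Queens of the same line were paired across the groups only through the line number in the labels. Their deviations from the group means correlated across genes at -0.689 (line_207), -0.745 (line_141), 0.303 (line_296), 0.068 (line_51) and 0.262 (line_191), so the lines were not taken as pairs.

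The members and lists were chosen with earlier results of these data known, and the lists' search patterns on product names were corrected after names and values were seen. The lists of serine protease inhibitors and mitochondrial ribosomal proteins were added then. Genes were named by this rule: called genes with a product name (none), genes of stated roles whether called or not, and per group the 5 named genes of largest SD at a mean log2 CPM of at least 5. Products called hypothetical were treated as unnamed. The genes of smallest p, the serpins, LOC100649042, LOC100643157, LOC100645105, LOC100646008, LOC100642642, Argk, LOC100645892, LOC100643317, LOC100644101 and LOC100651905, and those of smallest p between diapause and CO2-treated queens, were chosen after their values were seen. Alternatives were DESeq2 size factors, the DESeq2 test, no filter, founders only, the line as block, leaving out the 2 shallow libraries or each founder, and only intervals of a gene's main scaffold. Leaving out founder post diapause 1 with founder post CO2 1, the first component as a covariate, and leaving out diapause 1 with the 2 shallow libraries were chosen after seeing the data. Of the lists not described in the report, 0 members were called.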

Additional observations from a re-analysis of the deposited data

Results flagged for a closer look

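Of 136 checks of a gene or library measure in a group of 5 founders, 6 found a single queen standing apart. Her gap to the nearest other queen was more than 0.71 of the group's range, with genes taken on the log2 scale. Chance gives about 1 in 20, so 6 of 136 is no more than chance gives. Vitellogenin-6-like (LOC100643258) was at 4.02 CPM in founder post CO2 replicate 2, against 19.1 to 29.1 CPM in the other 4 queens. The hexamerin-like gene LOC100650745 was at 1096 CPM in the same queen, against 25.4 to 76.1 CPM in the others. Membrane metallo-endopeptidase-like 1-like (LOC100645190) was at 94.9 CPM in founder post diapause replicate 1, against 1349 to 3250 CPM in the others. Glucose dehydrogenase [acceptor]-like (LOC100647448) was at 12.4 CPM in founder post CO2 replicate 4, against 3.69 to 5.26 CPM. The C20orf4-like gene (LOC100649756) was at 72.1 CPM in founder post diapause replicate 2, against 89.0 to 93.3 CPM. Transcription initiation factor TFIID subunit 7-like (LOC100647652) was at 25.4 CPM in founder post CO2 replicate 1, against 47.0 to 55.5 CPM.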

How the results depend on the processing

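With edgeR, 0 genes were called under DESeq2 size factors, no filter, founders only, without the 2 shallow libraries, and on main scaffolds only. The genetic line as block also gave 0 calls with 25 and with 10 libraries (160 and 29 genes at an unadjusted p under 0.05). Other settings moved the counts. DESeq2 called 3 higher and 5 lower. Leaving out each founder gave 0 to 1 gene higher (1 without founder post CO2 replicate 3) and 0 to 4 lower (4 without founder post CO2 replicate 1, 1 without its replicate 2 and 1 without founder post diapause replicate 1), with 98 to 1047 genes at an unadjusted p under 0.05. Without replicate 1 of both groups 3 were lower, and with the first component as a covariate 1 (LOC100648224). The cause was not tested. The difference in spread ranged from -0.393 to -0.089 when each founder was left out. It was -0.28 on genes of mean log2 CPM at least 5, -0.25 at a prior count of 0.5, -0.26 with DESeq2 size factors and -0.23 without replicate 1 of both groups. The main fit called no gene, so the stability of calls could not be examined. Directions turned in LOC100643258, to -0.10 with the line as block. With the covariate, LOC100643217 turned to 0.18, LOC100644779 to 0.28 and LOC100647652 to 0.15. LOC100648328 turned to -0.031 without a filter and -0.029 without shallow libraries. It was -0.21 without replicate 1 of both groups and -0.13 with the covariate. Leaving out single founders gave -0.21 to 0.27 for LOC100643258, -0.18 to 2.77 for LOC100650745, -0.21 to 0.45 for LOC100648328, -0.21 to 0.09 for LOC100647652 and -0.092 to 1.78 for LOC100651307. The number of queens, their spread and the genes covered by the table limit what could be called.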
